A study of Mus musculus with 6 samples.

Results

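Cultures of splenic T cells can carry RNA from the other cells of the spleen, and 8 genes known for such cells were examined here among the 11175 genes of the deposited table. They were Lyz2, Apoe and Cd68 for macrophages, Ighm, Ighd and Cd79b for B cells, and Hbb-bs and Hba-a1 for erythroid cells, chosen by name as signs of purity, and each had 1 row. The choice was made with earlier results of these data known. RNA was sequenced from CD8+ T cells of WT mouse spleen, activated in culture for 48 h through CD3 and CD28. The first group of 3 libraries came from cells that also received DOPAC (3,4-dihydroxyphenylacetic acid, a breakdown product of dopamine), and the second group of 3 came from Control cells that did not. Both groups therefore share genotype, tissue and stimulation. The labels give no dose, no age or sex of the animals and no method of purifying the cells. Nor do they say whether replicates came from separate animals or cultures, so that a p-value here rests on library-to-library spread alone, which may be technical.

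Red pulp macrophages of the spleen engulf aged red cells, B cells fill its follicles, and the mouse spleen also makes red cells. Lysozyme (Lyz2), apolipoprotein E (Apoe) and the lysosomal glycoprotein macrosialin (Cd68) are abundant products of macrophages. Ighm and Ighd encode the constant parts of the IgM and IgD heavy chains, and Cd79b encodes a signalling partner of the antigen receptor of B cells. Hbb-bs and Hba-a1 encode the adult beta and alpha chains of haemoglobin. The heavy chain locus is known to be transcribed in T cells as well, without making antibody.

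All values are FPKM, expression scaled for transcript length and library size, so that levels of different genes can be set side by side. How reads matching several genes were assigned is not given, which limits such comparisons. Read counts cannot be taken from them, so sequencing depth is unknown and counting error is not given. A gene was compared when its mean over the 6 libraries was at least 1 FPKM, which 10887 genes and all 8 members passed. Hbb-bs and Hba-a1 passed only through the Control libraries, since their DOPAC means lay below 1 FPKM. FPKM summed to between 292755 and 316035 in DOPAC libraries and between 283818 and 310918 in Control libraries. Control replicate 1 stood apart, with a Pearson's r of log2(FPKM + 1) over genes of 0.899 to 0.917 with the other 5 libraries, which gave 0.974 to 0.992 among themselves.

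The libraries carried the transcripts of the labelled cell type at high level. All 12 CD8 T cell markers were listed, and their FPKM summed to between 1593 and 1772 in DOPAC libraries and between 1685 and 1929 in Control libraries. Cd8a, a chain of the CD8 coreceptor, measured 178 to 192 FPKM with DOPAC and 153 to 202 FPKM in Control. Trac, the constant part of the T cell receptor alpha chain, measured 268 to 298 FPKM with DOPAC and 298 to 304 FPKM in Control. For comparison, Actb, the cytoskeletal actin, measured 1950 to 2011 FPKM with DOPAC and 1457 to 2004 FPKM in Control, Gapdh 18.9 to 22.9 FPKM with DOPAC and 18.0 to 72.8 FPKM in Control, and Ptprc, the pan-leukocyte CD45 gene, 92.5 to 102 FPKM with DOPAC and 42.7 to 99.4 FPKM in Control. The extreme value of the last 3 genes was in Control replicate 1 each time. Gapdh lay far below Tpi1 and Pgk1, enzymes of neighbouring steps of sugar breakdown, in every library. With DOPAC, Tpi1 measured 456 to 537 FPKM and Pgk1 811 to 916 FPKM. In Control, Tpi1 measured 316 to 353 FPKM and Pgk1 452 to 592 FPKM. The reason was not tested, so Gapdh is a poor yardstick of level here.

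The 8 genes spanned 2 orders of magnitude, and not all of them were at trace level. Ighm had a mean over the 6 libraries above that of 97.5% of the genes tested, Lyz2 above 66.5% and Apoe above 55.3%. The other 5 lay low, with Ighd above 24.9%, Cd68 above 18.3%, Hbb-bs above 15.3%, Cd79b above 12.6% and Hba-a1 above 3.73% of genes. With DOPAC the order of mean FPKM was Ighm, Lyz2, Apoe, Ighd, Cd68, Cd79b, Hbb-bs and Hba-a1. In that order the ranges of neighbours overlapped except between Ighm and Lyz2 and between Ighd and Cd68. In Control the order was Ighm, Lyz2, Apoe, Hbb-bs, Ighd, Cd68, Cd79b and Hba-a1, and the ranges of neighbours overlapped except between Ighm and Lyz2 and between Apoe and Hbb-bs.

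**Figure D1:**
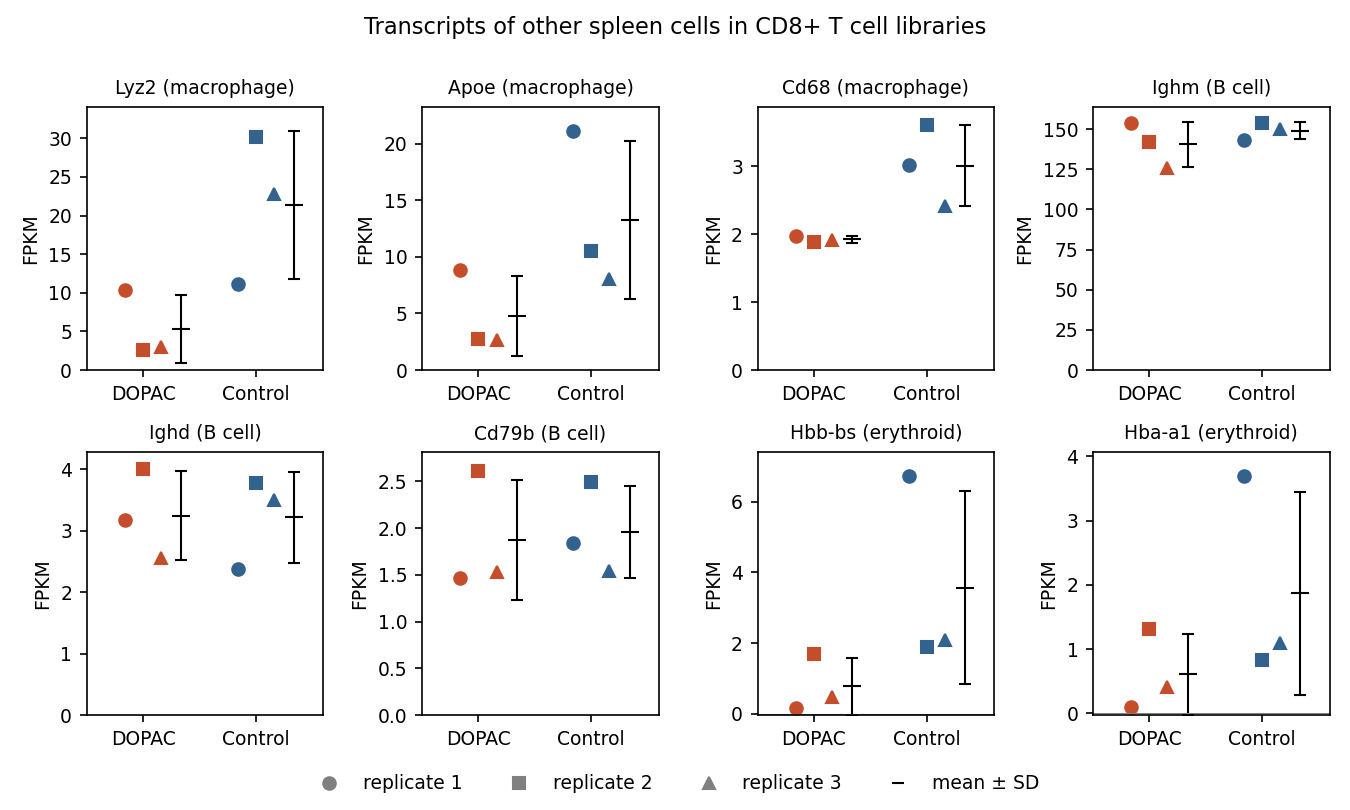
FPKM of the 8 genes (vertical axes, each starting at or just under 0) in the 3 DOPAC libraries (left, red) and the 3 Control libraries (right, blue), with the replicate shown by the symbol and the mean ± SD in black. All DOPAC points lie below all Control points for Lyz2, Cd68 and Hbb-bs, the points of the B cell genes overlap, and Control replicate 1 (blue circle) is the highest library for Apoe and both globin genes.

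Macrophage and erythroid genes had lower values with DOPAC, while the 3 B cell genes lay at similar levels in both groups. None of the 8 differences passed the threshold, an adjusted p under 0.05 in limma's moderated test with Benjamini-Hochberg adjustment over all 10887 genes, and no gene of the table did (0% called). At an unadjusted p under 0.05 there were 4 of the 8 genes, Lyz2, Apoe, Cd68 and Hbb-bs, all lower with DOPAC, against 1.46% of all genes tested that were lower at that level and 4.19% in either direction. In 3 of the 8, Lyz2, Cd68 and Hbb-bs, every DOPAC library lay below every Control library, against 4.8% of all genes lower in this way and 17.2% separated in either direction. A negative log2 fold change was found in 7 of the 8 genes, against 37.9% of all genes. The 8 genes were chosen with earlier results of these data known, so setting them beside these shares is a description and no test. Since Hbb-bs and Hba-a1 passed the filter only where Control was high, their lower DOPAC values were favoured by it. Of the other 6 genes, 3 were lower at an unadjusted p under 0.05, 2 were lower in every DOPAC library, and 5 had negative values, with a median of -0.27. The median log2 fold change over all genes tested was 0.07. It was -0.01 without Control replicate 1 and -0.02 with library weights, so the share of negative genes was larger in those settings. Genes at an unadjusted p under 0.05 (limma) numbered 456 with all 6 libraries and 1574 without Control replicate 1. The shares of all genes given here therefore depend on that library. In bulk RNA fewer cells of a type and less RNA per cell cannot be told apart.

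Lyz2 lies on chromosome 10 at 117277331 to 117282321 on the minus strand (GENCODE M21 on GRCm38, the mm10 build) and encodes lysozyme M, an enzyme that cleaves bacterial cell walls. It measured 10.4, 2.57 and 3.01 FPKM in DOPAC replicates 1 to 3, against 11.2, 30.2 and 22.9 FPKM in Control replicates 1 to 3. The groups did not overlap, but DOPAC replicate 1 and Control replicate 1 were close to each other. The means were 5.32 ± 4.39 FPKM with DOPAC and 21.4 ± 9.58 FPKM in Control (SD, n = 3 each), and on the log2(FPKM + 1) scale the fold change was -1.93, with a 95% interval of -3.18 to -0.68 (adjusted p = 0.801, limma). Only 2 of the 10887 genes, Spp1 and the predicted gene Gm10443 (named after its values were seen), had a lower log2 fold change. With libraries weighted by their spread (limma's array weights) the value was -2.58 and passed (limma adjusted p = 0.018), and it was the only one of the 8 genes to do so under any alternative.

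Lyz2 has a near copy, Lyz1, known as the lysozyme of Paneth cells of the gut, on the same chromosome. The coding sequences of both are 447 bases long and differ at 22 positions (95.1% identity), and their longest identical stretch is 118 bases. The stretch where they differ most, coding bases 61 to 120, is shown from GENCODE M21 transcripts, with the 9 differing bases in capitals; it lies at chr10:117282123-117282182 (minus strand) in Lyz2 and at chr10:117292719-117292778 (minus strand) in Lyz1.
Lyz2: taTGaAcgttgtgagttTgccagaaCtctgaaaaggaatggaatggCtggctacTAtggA
Lyz1: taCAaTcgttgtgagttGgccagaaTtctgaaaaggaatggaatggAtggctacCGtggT
Lyz1 was not analysed here. How reads from shared stretches were assigned is not given in the sources used here, which leaves the level of Lyz2 uncertain to that extent.

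Apoe, on chromosome 7 at 19696109 to 19699188, encodes a lipid carrier that macrophages secrete. It measured 8.88, 2.73 and 2.69 FPKM in DOPAC replicates 1 to 3, against 21.2, 10.5 and 8.05 FPKM in Control replicates 1 to 3. DOPAC replicate 1 lay between the lower Control libraries, so the groups overlapped, while the other DOPAC libraries were below all Control libraries. The log2 difference between the groups was -1.36, with a 95% interval of -2.51 to -0.21 (adjusted p = 0.801, limma), and -0.99 without Control replicate 1 (95% interval -2.09 to 0.11). The interval also spanned 0 without DOPAC replicate 2 (-2.46 to 0.20) or DOPAC replicate 3 (-2.45 to 0.20). It stayed below 0 without Control replicate 2, Control replicate 3 or DOPAC replicate 1. Apoe was lower with DOPAC in 3 of 3 pairs of same-numbered libraries, which no label links. With the replicate number as a block its interval was -1.76 to -0.96, still with an adjusted p of 0.698 (limma). The block also narrowed the intervals of Ighd and Cd79b. It widened those of Lyz2 (-3.38 to -0.48), Cd68 (-0.83 to -0.06), Hbb-bs (-2.49 to -0.10), Hba-a1 (-1.89 to 0.34) and Ighm (-0.43 to 0.25).

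Cd68, on chromosome 11 at 69664213 to 69666153, encodes macrosialin of the macrophage lysosome. It measured 1.98, 1.88 and 1.92 FPKM in DOPAC replicates 1 to 3, against 3.02, 3.61 and 2.42 FPKM in Control replicates 1 to 3. These are low levels with little spread among DOPAC libraries, and the groups did not overlap. DOPAC minus Control came to -0.45 on the log2 scale, with a 95% interval of -0.79 to -0.10 (adjusted p = 0.801, limma), and -0.44 without Control replicate 1. The interval spanned 0 without Control replicate 2 (-0.70 to 0.02), DOPAC replicate 2 (-0.90 to 0.03) or DOPAC replicate 3 (-0.91 to 0.02). It stayed below 0 without Control replicate 1, Control replicate 3 or DOPAC replicate 1.

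The macrophage genes did not keep 1 ratio to each other across libraries. The ratio of Lyz2 to Apoe was 1.17, 0.943 and 1.12 in DOPAC replicates 1 to 3, against 0.528, 2.87 and 2.84 in Control replicates 1 to 3. Control replicate 1 thus had the highest Apoe and the lowest Lyz2 of its group. Osteopontin (Spp1), a secreted protein that macrophages and activated T cells can make, measured 2.51, 3.14 and 4.58 FPKM in DOPAC replicates 1 to 3, against 10.4, 68.8 and 46.1 FPKM in Control replicates 1 to 3. As with Lyz2, the lowest Control value of Spp1 was in replicate 1 and the highest in replicate 2.

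Of a wider list of 30 macrophage and monocyte genes, 7 were listed and 5 passed the filter on low values. All 5 had negative log2 fold changes, against 37.9% of all genes tested. The list was also chosen with earlier results of these data known, so this is a description and no test. Of the 5, 0 passed the threshold, and the median was -0.58, against 0.07 for all genes. Leaving out Lyz2, Apoe and Cd68 left 2 tested genes, with a median of -0.31. The summed FPKM of the 7 listed genes was 40.5 to 63.7 with DOPAC and 72.6 to 85.4 in Control, and none was at 0 in any library. Without Lyz2, Apoe and Cd68 the sums overlapped, at 32.9 to 42.5 FPKM with DOPAC and 37.2 to 43.2 FPKM in Control. Most of these sums was Ctss, the lysosomal protease cathepsin S, which other antigen-presenting cells also express and which averaged 34.5 ± 4.55 FPKM with DOPAC and 35.4 ± 3.37 FPKM in Control (SD, n = 3 each; log2 fold change -0.04, 95% interval -0.39 to 0.31; limma adjusted p = 0.940).

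The less abundant macrophage markers lay lower in every DOPAC library than in every Control library. Among all genes tested 4.8% were lower in this way, and 17.2% were separated in either direction. Lgmn, the lysosomal protease legumain, measured 1.38, 1.39 and 1.09 FPKM in DOPAC replicates 1 to 3, against 2.40, 3.04 and 1.87 FPKM in Control replicates 1 to 3 (log2 fold change -0.58, 95% interval -0.96 to -0.20; limma adjusted p = 0.801). Gpnmb, a glycoprotein of phagocytes, measured 0.731, 0.310 and 0.264 FPKM in DOPAC replicates 1 to 3, against 1.31, 1.55 and 1.10 FPKM in Control replicates 1 to 3. C1qb, a chain of complement C1q that tissue macrophages make, measured 0.652, 0.322 and 0.238 FPKM in DOPAC replicates 1 to 3, against 1.23, 1.40 and 1.22 FPKM in Control replicates 1 to 3. In both, DOPAC replicate 1 was the highest of its group, as for Lyz2 and Apoe. Both were under the filter, and without it their log2 fold changes were -0.70 and -0.71 (limma adjusted p = 0.801 each). The other 23 genes of the list, Adgre1 and Csf1r among them, were not analysed here.

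**Figure D2:**
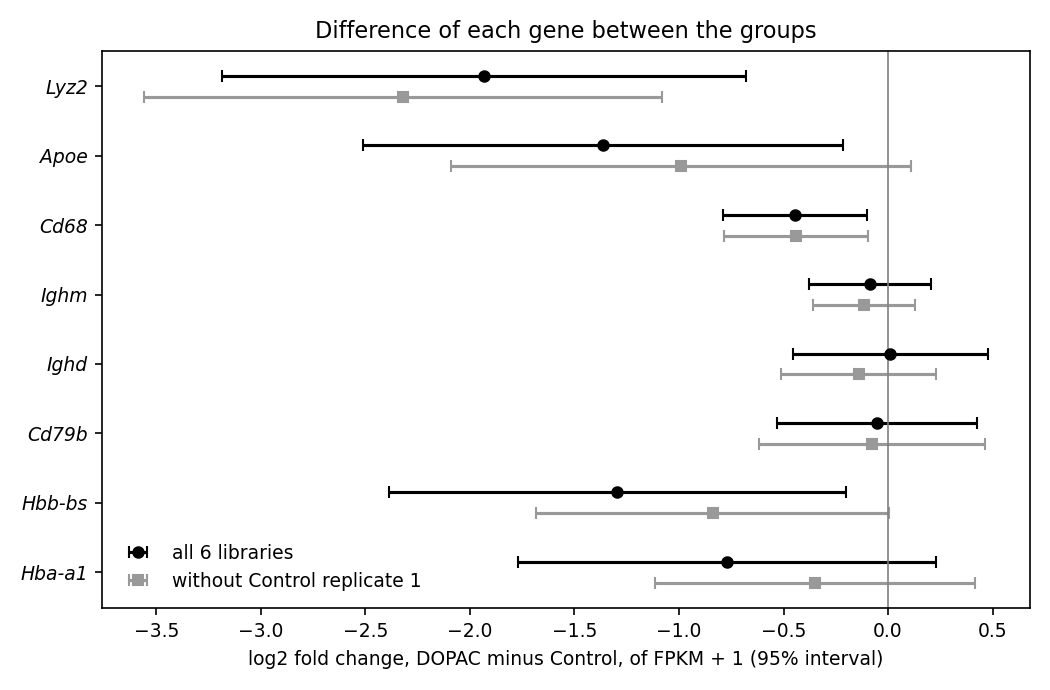
Log2 fold change of FPKM + 1, DOPAC minus Control (horizontal axis), of the 8 genes, with 95% intervals of the limma fit, from all 6 libraries (black circles) and without Control replicate 1 (grey squares). The intervals of Lyz2 and Cd68 lie below 0 in both fits, those of Apoe and Hbb-bs in the fit with all 6 libraries, and those of the 3 B cell genes and Hba-a1 span 0 in both.

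The B cell genes were at nearly equal levels in the groups. Ighm, on chromosome 12 at 113418558 to 113422730, measured 154, 142 and 126 FPKM in DOPAC replicates 1 to 3, against 143, 154 and 150 FPKM in Control replicates 1 to 3. The highest values of both groups were alike. The means were 141 ± 14.1 FPKM with DOPAC and 149 ± 5.20 FPKM in Control (SD, n = 3 each), with a log2 fold change of -0.09 (95% interval -0.38 to 0.20; limma adjusted p = 0.843). On the same FPKM scale Thy1, a surface glycoprotein of T cells, averaged 163 ± 17.5 FPKM with DOPAC and 192 ± 40.1 FPKM in Control (SD, n = 3 each), somewhat above Ighm.

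Ighd, which lies next to Ighm at 113406604 to 113416324 and is spliced from the same primary transcript in B cells, was far lower. It measured 3.17, 3.999 and 2.56 FPKM in DOPAC replicates 1 to 3, against 2.38, 3.78 and 3.49 FPKM in Control replicates 1 to 3. The groups overlapped, with replicate 2 the highest of each. The log2 difference between the groups was 0.01, with a 95% interval of -0.45 to 0.48 (adjusted p = 0.992, limma), and its sign flipped with equal medians, quantile normalization, library weights and without Control replicate 1 or DOPAC replicate 2. The ratio of Ighm to Ighd was between 35.5 and 49.2 in DOPAC libraries and between 40.7 and 60.3 in Control libraries.

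Cd79b, on chromosome 11 at 106311341 to 106314762, measured 1.47, 2.61 and 1.53 FPKM in DOPAC replicates 1 to 3, against 1.84, 2.49 and 1.54 FPKM in Control replicates 1 to 3. Here too replicate 2 was the highest of each group. DOPAC minus Control came to -0.05 on the log2 scale, with a 95% interval of -0.53 to 0.43 (adjusted p = 0.942, limma), with a sign that flipped with library weights and without Control replicate 2, DOPAC replicate 1 or DOPAC replicate 3. Over these 3 genes the intervals reached from -0.53 to 0.48, and the interval of Ighm was the narrowest.

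Other segments of the heavy chain locus were also present. The 4 joining segments Ighj1 to Ighj4 and the diversity segment Ighd4-1, all on chromosome 12 and named after their values were seen, measured 2.97 to 29.1 FPKM in DOPAC libraries and 1.99 to 26.0 FPKM in Control libraries. Of these Ighj1 was the highest, at 29.1, 22.6 and 20.1 FPKM in DOPAC replicates 1 to 3, against 20.9, 25.7 and 26.0 FPKM in Control replicates 1 to 3. Such segments are short, which makes FPKM imprecise. Of the list of 23 B cell genes, 4 were listed, all passed the filter, and 0 passed the threshold. The median log2 fold change was -0.02, with 2 positive and 2 negative. The fourth gene, Sdc1, a proteoglycan of plasma cells, averaged 1.13 ± 0.114 FPKM with DOPAC and 1.01 ± 0.171 FPKM in Control (SD, n = 3 each). The summed FPKM of the list was 131 to 160 with DOPAC and 149 to 161 in Control, nearly all of it Ighm. The immunoglobulin light chain genes and the other 19 genes of the list, among them Ms4a1 and Cd79a, were not analysed here.

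The globin genes had the widest spread relative to their means among the 8 genes, with an SD of 103% of the mean for each with DOPAC, and of 76.5% for Hbb-bs and 84.7% for Hba-a1 in Control. Hbb-bs, on chromosome 7 at 103826534 to 103828096, measured 0.176, 1.70 and 0.471 FPKM in DOPAC replicates 1 to 3, against 6.72, 1.89 and 2.09 FPKM in Control replicates 1 to 3. The groups did not overlap, although DOPAC replicate 2 came close to Control replicate 2. The log2 difference between the groups was -1.30, with a 95% interval of -2.39 to -0.20 (adjusted p = 0.801, limma), and -0.84 without Control replicate 1 (95% interval -1.68 to 0.01). The interval also spanned 0 without DOPAC replicate 1 (-2.33 to 0.24) or DOPAC replicate 3 (-2.54 to 0.14). It stayed below 0 without Control replicate 2, Control replicate 3 or DOPAC replicate 2.

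Hba-a1, on chromosome 11 at 32283511 to 32284465, measured 0.105, 1.32 and 0.408 FPKM in DOPAC replicates 1 to 3, against 3.69, 0.824 and 1.09 FPKM in Control replicates 1 to 3. DOPAC replicate 2 was above the lower Control libraries, so the groups overlapped. DOPAC minus Control came to -0.77 on the log2 scale, with a 95% interval of -1.77 to 0.23 (adjusted p = 0.801, limma), and -0.35 without Control replicate 1 (95% interval -1.12 to 0.42). The globin genes ranked the libraries alike within the DOPAC group, with replicate 2 highest and replicate 1 lowest, and both were highest of all in Control replicate 1. The ratio of Hbb-bs to Hba-a1 was 1.68, 1.29 and 1.15 in DOPAC replicates 1 to 3, against 1.82, 2.30 and 1.91 in Control replicates 1 to 3.

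Control replicate 1 also held high values of other short transcripts. The exons of Hbb-bs add up to 768 bp and those of Hba-a1 to 812 bp. Tested genes within 20% of these lengths had a median deviation of Control replicate 1 from the mean of the other 5 libraries of 0.66 (376 genes) and 0.59 (357 genes) on the log2(FPKM + 1) scale, against 1.87 for Hbb-bs and 1.47 for Hba-a1. Apoe, with 2138 bp of exons, deviated by 1.71, against a median of 0.05 in the 1181 genes of like length. Lyz2, with 1316 bp, deviated by 0.23, against 0.34 in 596 genes. The other 5 libraries include the DOPAC libraries, so each deviation also holds the difference between the groups. Within its own group Lyz2 was low in Control replicate 1, at 11.2 FPKM, with 30.2 and 22.9 FPKM in Control replicates 2 and 3. The part of length in these differences was not tested.

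Each globin gene has a near-identical copy next to it, so reads could belong to either. Hba-a1 and Hba-a2 differ at 1 of 429 coding bases (99.8% identity), and Hbb-bs and Hbb-bt at 1 of 444 (99.8% identity). The coding stretches around these single differences are shown from GENCODE M21 transcripts, with the differing base in capitals. They lie at chr11:32284313-32284372 (plus strand) for Hba-a1, chr11:32297130-32297189 (plus strand) for Hba-a2, chr7:103826665-103826724 (minus strand) for Hbb-bs and chr7:103812656-103812715 (minus strand) for Hbb-bt.
Hba-a1: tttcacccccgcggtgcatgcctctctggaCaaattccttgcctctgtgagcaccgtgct
Hba-a2: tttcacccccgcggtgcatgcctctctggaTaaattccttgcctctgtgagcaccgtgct
Hbb-bs: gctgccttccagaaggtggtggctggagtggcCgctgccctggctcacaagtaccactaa
Hbb-bt: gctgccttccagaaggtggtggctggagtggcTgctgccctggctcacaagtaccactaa
Outside these bases the coding sequences are the same, with identical stretches of up to 380 bases in the alpha pair and 416 bases in the beta pair. The values of Hba-a1 and Hbb-bs are therefore uncertain as values of single genes. Hba-a2 and Hbb-bt were not analysed here.

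Of the list of 18 erythroid genes, 4 were listed, all passed the filter, and 0 passed the threshold. Beside the globins these were Car2, carbonic anhydrase 2, which is abundant in red cells and made by other cells too, and Hemgn, a nuclear protein of blood precursors. Car2 measured 0.489, 0.762 and 0.819 FPKM in DOPAC replicates 1 to 3, against 4.64, 1.65 and 1.79 FPKM in Control replicates 1 to 3. Like the globins it was highest in Control replicate 1, and its groups did not overlap (log2 fold change -1.04, 95% interval -1.75 to -0.33; limma adjusted p = 0.801). Hemgn averaged 2.41 ± 0.599 FPKM with DOPAC and 2.05 ± 0.288 FPKM in Control (SD, n = 3 each), with a log2 fold change of 0.15 (95% interval -0.24 to 0.54). Car2 and both globins had DOPAC means under 1 FPKM and passed the filter only through Control, so that their negative values were favoured by it, while Hemgn had a mean above 1 FPKM in both groups. The median over all 4 was -0.91, which was -0.52 without Control replicate 1 and -0.45 with library weights. Its summed FPKM was 3.85 to 5.77 with DOPAC and 6.70 to 17.1 in Control. The other 14 genes, Alas2 among them, were not analysed here.

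**Figure D3:**
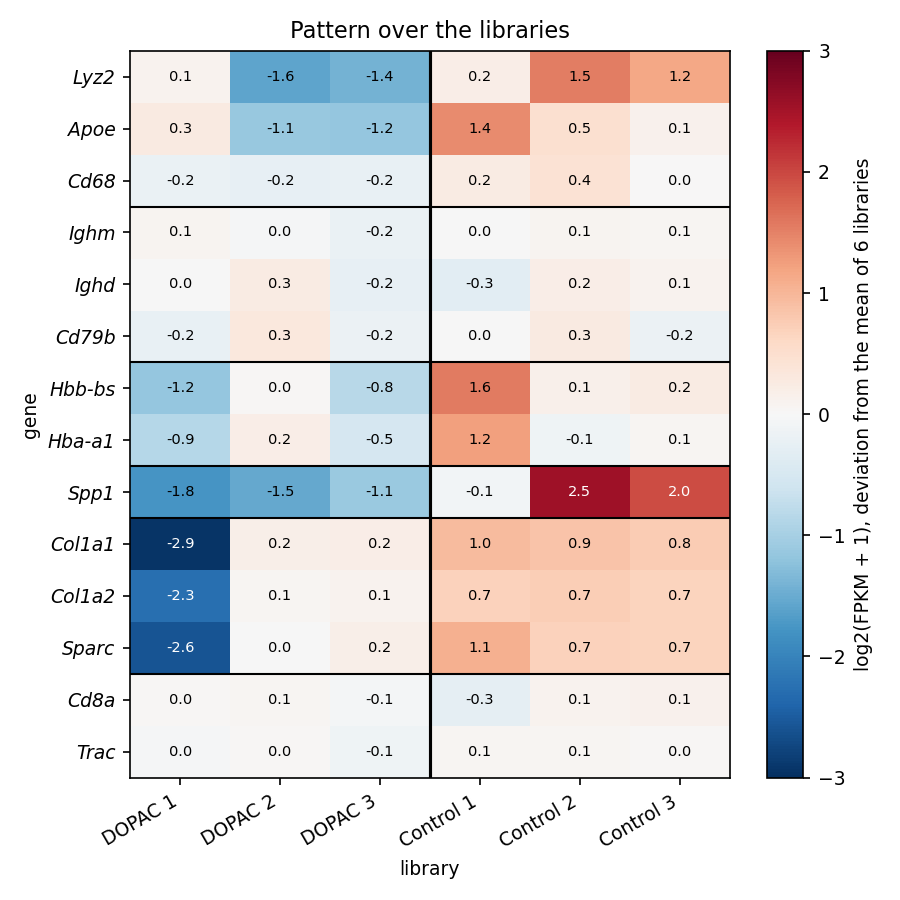
Deviation of log2(FPKM + 1) from the mean of the 6 libraries (colour and printed number) for the 8 genes, Spp1, the matrix genes Col1a1, Col1a2 and Sparc, and the T cell genes Cd8a and Trac (rows), in DOPAC libraries (left) and Control libraries (right). Lyz2 and Apoe are lowest in DOPAC replicates 2 and 3, the globin and matrix rows are lowest in DOPAC replicate 1, and the B cell and T cell rows stay near 0.

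Values of stromal genes are given beside those of the 8 genes, because they were also low with DOPAC. Being shown for that reason, their low values are a description and no test. The matrix gene Col1a1, a collagen chain of fibroblasts, measured 0.160, 9.12 and 9.16 FPKM in DOPAC replicates 1 to 3, against 16.2, 15.1 and 14.0 FPKM in Control replicates 1 to 3. Lyz2 and Apoe were highest among DOPAC libraries in replicate 1, where the collagen was near 0. Of the 13 stromal and endothelial genes, 7 were listed, and their FPKM summed to between 6.83 and 30.3 with DOPAC and between 45.6 and 50.1 in Control. Sparc, a matrix glycoprotein, gave -1.63 on the log2 scale (95% interval -3.31 to 0.05), Col1a2, the partner chain of Col1a1, gave -1.39 (95% interval -2.85 to 0.06), and Pecam1, of endothelial cells and some leukocytes, gave 0.12 (95% interval -0.36 to 0.59). Col3a1, another collagen, gave -1.33 (95% interval -2.30 to -0.35), and the matrix genes Lum and Postn, under the filter, gave -0.93 (95% interval -1.31 to -0.56) and -0.76 (95% interval -1.18 to -0.34) without it. In 6 of the 7 genes every DOPAC library lay below every Control library. Among the 5 that passed the filter this held for 4, against 4.8% of all genes tested. In either direction 17.2% of all genes tested were separated. Of these 5 stromal and endothelial genes 0 passed the threshold. Their median was -1.39, lower than those of the macrophage and erythroid lists, although the filter itself favoured a low erythroid median. The part of stromal RNA in the differences of the 8 genes was not tested.

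MHC class II genes, shared by macrophages, B cells and dendritic cells, had log2 fold changes of both signs. Cd74, the invariant chain, measured 8.53, 11.2 and 9.33 FPKM in DOPAC replicates 1 to 3, against 13.1, 13.4 and 12.8 FPKM in Control replicates 1 to 3. H2-Ab1, a class II beta chain, measured 2.94, 1.85 and 2.03 FPKM in DOPAC replicates 1 to 3, against 0.882, 0.858 and 0.419 FPKM in Control replicates 1 to 3. Every DOPAC library was thus lower than every Control library for Cd74 and higher for H2-Ab1, with log2 fold changes of -0.41 (95% interval -0.74 to -0.08) and 0.93 (95% interval 0.49 to 1.36; limma adjusted p = 0.801 each). Among all genes tested 17.2% were separated in either direction. H2-Ab1 passed the filter only through the DOPAC libraries. H2-DMa, which loads peptides on class II, had a value of -0.12 (95% interval -0.45 to 0.21). These 3 were the listed genes of 7, and their summed FPKM reached at most 15.1 with DOPAC and 16.5 in Control, with overlapping ranges. The 35 marker genes chosen for neutrophils, dendritic cells, NK cells, platelets and CD4 T cells were not analysed here.

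**Figure D4:**
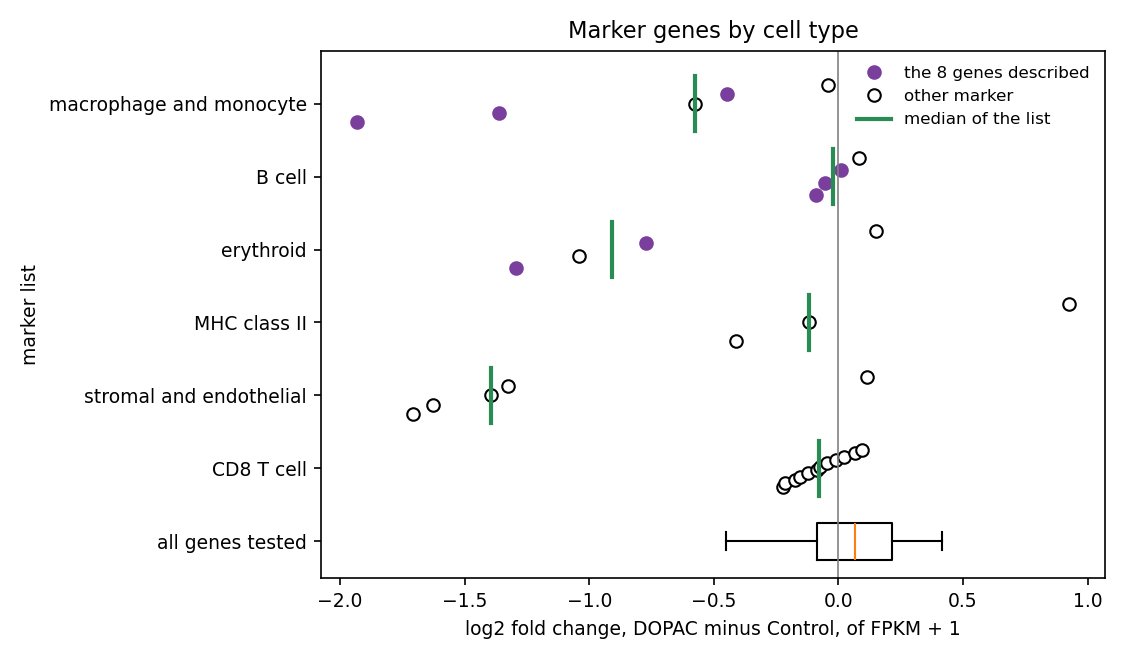
Log2 fold change of FPKM + 1, DOPAC minus Control (horizontal axis), of the tested markers of 6 cell types (rows), with the 8 genes filled, other markers open and the median of each list as a green line. The box below gives all 10887 genes tested (median and quartiles, whiskers from the 5th to the 95th percentile). The medians of the stromal and endothelial (-1.39), erythroid (-0.91), macrophage (-0.58) and MHC class II (-0.12) lists lie left of the box, and those of the CD8 T cell (-0.08) and B cell (-0.02) lists lie within it. In the erythroid list Hbb-bs, Hba-a1 and Car2 passed the filter only through Control, which favoured a low median.

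The CD8 T cell markers themselves had a median log2 fold change of -0.08, with 3 positive and 9 negative among 12 and 0 past the threshold. Thy1 had the value -0.22 (95% interval -0.64 to 0.20) and Trbc2, the constant part of the receptor beta chain, -0.12 (95% interval -0.45 to 0.20).

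Among the 6399 other genes with a mean of at least 5 FPKM, those whose pattern over the 6 libraries was most like the mean of each group of members were taken by Pearson's r of log2(FPKM + 1), as a description. Each r rests on 6 libraries that fall into the same 2 groups, and no test was made. For the mean of Lyz2, Apoe and Cd68 the closest were Ube2r2 (r = 0.977), Cdc20 (0.970), Dalrd3 (0.970), Abhd8 (0.956) and Psmd3 (0.953). For the mean of Ighm, Ighd and Cd79b they were Endod1 (r = 0.935), Tmem214 (0.875), Elk3 (0.862), Zfp362 (0.860) and Rnf167 (0.853). For the mean of Hbb-bs and Hba-a1 they were Capg (r = 0.993), Cyba (0.985), Dusp2 (0.971), Timm17b (0.971) and Rpusd1 (0.970). Cyba, which encodes a subunit of the phagocyte NADPH oxidase, measured 41.3, 52.8 and 44.9 FPKM in DOPAC replicates 1 to 3, against 81.5, 57.4 and 59.0 FPKM in Control replicates 1 to 3. Like the globins, Capg, Cyba, Dusp2, Timm17b and Rpusd1 were each highest in Control replicate 1 and highest among DOPAC libraries in replicate 2.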

How the data were processed

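Libraries were made from TRIzol-extracted RNA with a full-length SMART-Seq HT cDNA kit and a Nextera XT kit, per the labels' protocols, which do not mark the strand. The tools named are cutadapt 1.9 and HISAT2 2.2.1, with mm10 as the build, per the submitters' processing notes. What estimated expression, and which genes were filtered, is not given in the sources used here. The authors deposited FPKM per gene and library in 1 table. It also holds the authors' log2 fold change and the authors' p-values, per the file headers, whose test is not named; these were not used as results.

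The library name of each sample gave its group and replicate number. FPKM were transformed to log2(FPKM + 1), so that fold changes understate differences of low genes, and 288 genes with a mean under 1 FPKM were left out. R 4.3.3 with limma 3.58.1 fitted DOPAC against Control with a mean-variance trend, with Benjamini-Hochberg adjustment over all genes at 0.05. Scripts were tested on simulated data. Positions, exon lengths and coding sequences came from GENCODE M21 (11067 of 11175 identifiers matched), and no other annotated gene overlapped the 8. Figures used matplotlib 3.10.9 under Python 3.11.15.

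The members, the 11 marker lists and the tests were chosen with earlier results of these data known. Named genes were the 8 members, the 4 most abundant other genes of each list, the 5 genes most like each group of members, and a few fixed genes (Spp1, Actb, Gapdh, Ptprc and near copies). Among those named outside this rule were Col3a1, Lum, Postn, Tpi1, Pgk1, Gm10443, Gm49510, Ighj1 to Ighj4 and Ighd4-1. Same-numbered libraries deviated together from their group means (correlations over genes of 0.34, 0.16 and 0.28). By a fixed rule the replicate number was therefore fitted as a block, but only as an alternative. The main fit, with its intervals and p-values, was unpaired. No label mentions an animal or day in common. Alternatives were the replicate block, library weights, leaving out each library, equal medians or quantile normalization between libraries, pseudocounts of 0.1 and 0.5, and a filter at 5 FPKM or none.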

Additional observations from a re-analysis of the deposited data

How the results depend on the processing

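Across 14 alternatives, Lyz2, Apoe, Cd68, Ighm, Hbb-bs and Hba-a1 kept negative log2 fold changes wherever they were tested, with ranges of -2.58 to -1.63, -1.83 to -0.99, -0.60 to -0.33, -0.16 to -0.01, -2.24 to -0.69 and -1.61 to -0.24. A filter of 5 FPKM left only Lyz2, Apoe and Ighm to test. Ighd was -0.0363 with equal medians, -0.0326 with quantile normalization and -0.11 with library weights, and between -0.14 and 0.13 with 1 library left out. Cd79b was 0.12 with library weights and between -0.23 and 0.0734 with 1 library left out. Library weights called 167 genes, 1 of them a member, Lyz2 (-2.58); other settings called 0 genes and 0 members, except that 2 genes, Spp1 and the predicted gene Gm49510, and 0 members passed without Control replicate 1 (range 0 to 2 with 1 library left out). The replicate block called 0 genes and 0 members (limma adjusted p = 0.698 for Lyz2, Apoe, Cd68, Hbb-bs and Hba-a1) and changed no call. Unadjusted p-values under 0.05 were found for 456 genes with all 6 libraries, 1574 without Control replicate 1 and 2419 with library weights. The median of the erythroid list was -1.65 with a pseudocount of 0.1 and -0.45 with library weights, and that of the macrophage list was -1.36 with a filter of 5 FPKM, which left 3 of its genes. The median of the B cell list lay between -0.11 and 0.04 with 1 library left out. Depth is unknown, so counting error at the lowest levels cannot be given. The causes of these shifts were not tested.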
